A study of Mus with 2 samples.

Results

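Chemokine receptors of the myeloid lineage were examined in bone marrow derived macrophages (BMDMs) that were polarized with IL-4 in the presence or absence of GW4064, an agonist of the nuclear bile acid receptor FXR. The 9 genes Ccr1, Ccr2, Ccr3, Ccr7, Ccrl2, Cx3cr1, Cxcr2, Cxcr3 and Cxcr4 were chosen by name, and 10 probes on the array matched them, out of 20144 genes with a matched probe. In the DMSO group, marrow of Male C57BL6/J mice (strain C57BL6, 10 weeks of age in the study's methods) was grown for 7 d with 10 ng/mL of M-CSF and then kept for 24 h with 10 ng/mL of IL-4 and the solvent DMSO, which is the M2 condition. In the GW4064 group the same culture received 10 µM GW4064, dissolved in DMSO, during the 24 h with IL-4. Both groups therefore held IL-4, and cells without IL-4 were not on an array. The number of mice behind each culture was not given in the sources used here. Each group was 1 RNA sample on 1 Agilent 1-colour array, so no difference below has a replicate check, and no test was made between the groups. The free-text description of the GW4064 sample repeats the wording for DMSO, while its title, source and treatment labels all give GW4064, which was followed here.

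Chemokine receptors are G protein-coupled receptors of the cell surface. A chemokine bound from outside switches them on, and through inhibitory G proteins they steer the movement of the leukocyte towards the source, after which arrestins bind and the receptor is taken in. Receptors named CCR, CXCR and CX3CR differ in the chemokine class that they bind, and many of them bind several ligands. Atypical receptors bind a chemoattractant without this signal and instead hold, clear or present it. In cells of the monocyte and macrophage lineage, CCR2 and CX3CR1 are the receptors by which classical and patrolling monocytes are told apart, and a switch of receptors accompanies the move from blood into tissue.

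The signal of a spot is its fluorescence after background subtraction, in arbitrary units, and it depends on the probe, so signals were compared between arrays for the same probe and not between genes. The scanner software scored 57.4% (DMSO) and 58.5% (GW4064) of the probes used as well above background, with lowest signals among them of 15.7 and 15.1. A difference is the log2 of the signal on the GW4064 array minus that on the DMSO array, each relative to the 75th percentile of its own array (1209 and 1265). Copies of 1 probe at 10 places of the array gave a median SD of the log2 difference of 0.077 for 234 probes well above background at every spot and 0.21 for 118 probes well above background at none. Parts of the slide carried patches of spots whose signals on the arrays were 8-fold or more apart, and 16.5% of the spots had at least 2 other such spots within 300 µm. Those areas are called damaged below, and 2 of the receptors had a spot in them. The name rests on these differences alone. Physical damage of the slide was not tested, nor was the share of spots that would have such neighbours by chance.

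All 9 receptor genes were measured on both arrays, and none differed 2-fold or more between DMSO and GW4064. Of the 13533 genes measured, GW4064 was at or past 2-fold for 2.04% on the higher side and 2.71% on the lower side. At a limit of 1.5-fold, 1 of the 9 receptors was higher (Ccrl2) and 1 was lower (Ccr7), where 4.39% of all genes were higher and 5.56% lower. The receptors were spread to both sides, with 4 higher and 5 lower, a median log2 difference of -0.099 and a range from -0.60 to 0.73. Without the spots in damaged areas, which leaves out Cx3cr1 and Cxcr3, the median of the receptors was 0.26, so its sign did not hold. Over all genes the median was 0.0069, with 6986 higher and 6521 lower. Counted over 23749 measured probes in place of genes, the shares past 2-fold were 2.15% (higher) and 2.77% (lower), and those past 1.5-fold were 4.7% and 5.55%.

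**Figure D1:**
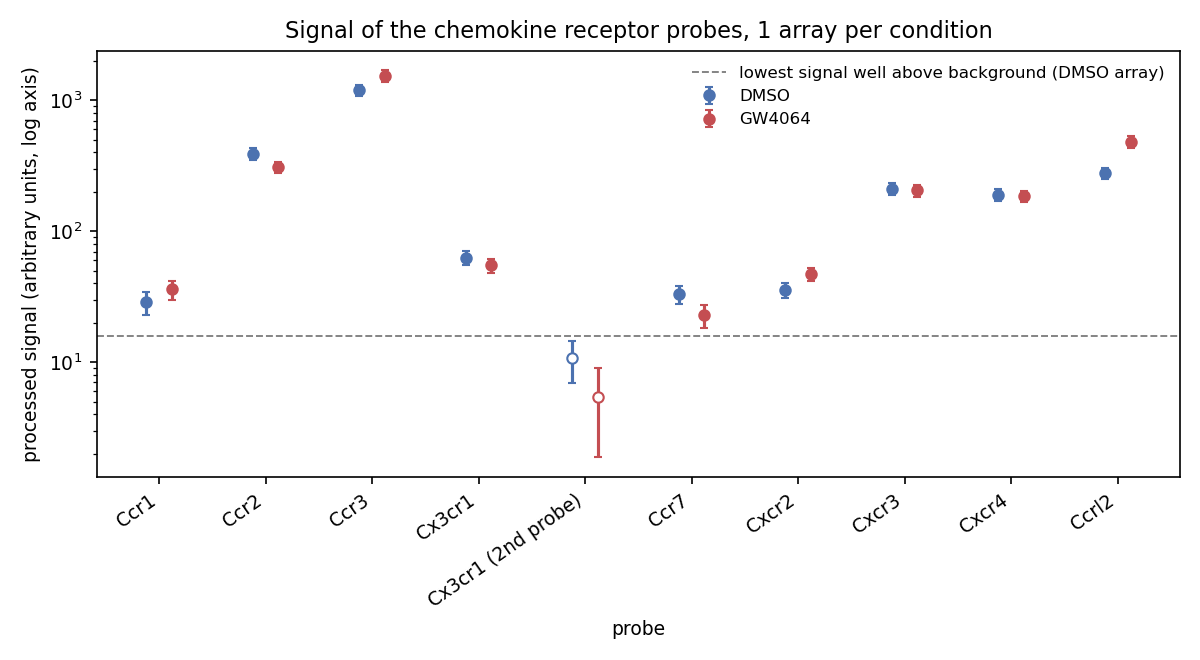
Processed signal (arbitrary units, log axis) of each chemokine receptor probe with DMSO (blue) and with GW4064 (red), with the error that the scanner software gives for the signal. Open points mark the 2nd Cx3cr1 probe, which neither array measured well above background, the dashed line is the lowest signal that the DMSO array had well above background (15.7), and levels of different probes are not comparable.

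The receptor with the largest difference among the 9 was Ccrl2, an atypical receptor that binds the chemoattractant chemerin and is known to be induced in activated macrophages and neutrophils. Its signal was 279 ± 28.0 with DMSO and 484 ± 48.5 with GW4064, where the error is the one that the scanner software gives for a signal. This is a 1.66-fold higher signal with GW4064, with a log2 difference of 0.73 ± 0.20. The difference was 7.50 times the SD of 0.097 that copied probes of a similar level showed over their copies. No spot within 300 µm of the Ccrl2 spot differed 8-fold or more, and the median difference of the spots around it was -0.073, on the other side of 0 from that of Ccrl2. The level of Ccrl2 was thus in the range where few probes differed this much: among the 17096 probes with a mean signal of 100 or more on both arrays, 1.49% were 1.5-fold or more higher and 1.73% as far lower.

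Ccr7, which guides dendritic cells to lymph nodes along CCL19 and CCL21, had the largest difference to the lower side among the 9. Its signal was 32.9 ± 5.29 with DMSO and 22.7 ± 4.43 with GW4064. The log2 difference was -0.60 ± 0.36, a 1.52-fold lower signal with GW4064. Both signals lay close to the lowest that counted as well above background, and the copies of probes at this level had an SD of 0.30, so that the difference was 1.99 times that SD. Among the 4611 probes with a mean signal below 100, 9.09% were 1.5-fold or more lower and 5.94% were 1.5-fold or more higher. With normexp background correction in place of the scanner software's own, the Ccr7 difference was -0.087. Markers of mature dendritic cells, the cells best known for Ccr7, were on both sides, with 2 higher and 2 lower of 4 measured. Among them was Fscn1, which bundles actin in their processes, at a log2 difference of -0.79, and the surface protein Cd83 at 0.68. The summed signal of that list was 3994 with DMSO and 6614 with GW4064, of which Cd83 alone gave 3878 and 6516. In a bulk culture, fewer cells of a type and less RNA per cell cannot be told apart, and the part of such cells in the Ccr7 value was not tested.

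Ccr2 and Cx3cr1, the receptors of the monocyte classes, were both on the lower side. Ccr2 binds CCL2 and lets classical monocytes leave the bone marrow. Its signal was 391 ± 39.3 with DMSO and 308 ± 31.1 with GW4064, a log2 difference of -0.41 ± 0.21 or a 1.33-fold lower signal, which was 4.20 times the SD of copied probes at this level. Cx3cr1 binds fractalkine and marks patrolling monocytes and many tissue macrophages. Its first probe gave 62.7 ± 7.41 with DMSO and 54.8 ± 6.61 with GW4064, a log2 difference of -0.26 ± 0.24, or 1.45 times the SD over copies. That spot lay in a damaged area, with 7 spots that differed 8-fold or more nearby, so Cx3cr1 has no value once such areas are left out. The other Cx3cr1 probe, with signals of 10.7 and 5.41, did not reach well above background and gives no difference.

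Markers of monocytes were not all on the side of Ccr2. Of the 4 measured markers of 5 listed, Plac8 was lower (a log2 difference of -0.74) and 2 probes of Ly6c1 gave -0.20, in a damaged area, and -1.05, while Chil3 was at 0.066. The list had a median of -0.28, and its summed signal was 152818 with DMSO and 167166 with GW4064, most of which was Chil3. Their part in the Ccr2 and Cx3cr1 values was not tested.

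Ccr1 and Ccr3, which lie close to Ccr2 in the genome, were on the higher side. Ccr3 is the receptor for the eotaxins and is best known from eosinophils. Its signal was 1198 ± 120 with DMSO and 1547 ± 155 with GW4064, a log2 difference of 0.30 ± 0.20. The signal was 1.23-fold higher, and the difference was 4.34 times the SD of 0.070 over copied probes at this level. Ccr1, a receptor for CCL3, CCL5 and several mouse chemokines on monocytes and neutrophils, gave 28.6 ± 5.85 with DMSO and 35.9 ± 6.09 with GW4064. Its log2 difference of 0.26 ± 0.38 was smaller than its own error and was 1.17 times the SD over copies. Of the eosinophil markers, Epx and Il5ra did not reach well above background, Siglecf had a log2 difference of 0.10, and Prg2 (132 and 49.9), in a damaged area, had -1.47. The summed signal of the measured eosinophil probes was 2542 with DMSO and 2669 with GW4064, most of which was Siglecf.

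In the gene order of the RefSeq annotation of GRCm38.p6, Ccr1, Ccr3 and Ccr2 lie in a run of neighbouring receptor genes with Cxcr6, Xcr1 and Ccr1l1. Members of this run did not share a direction. Ccr1, Ccr1l1 and Ccr3, which are next to each other, had log2 differences of 0.26, 0.11 and 0.30, while Ccr2, on one side of them, had -0.41 and Cxcr6, on the other side, had -0.043. Cx3cr1 is next to Ccr8 and Cxcr2 next to Cxcr1, and no array had Ccr8 or Cxcr1 well above background. Ccrl2 lies beside Ltf, the gene of the granule protein lactoferrin, whose log2 difference was -0.82 in a damaged area. The genes of the run code for similar proteins, and the sequences of the probes were not used here, so that binding of a related transcript to a probe was not tested.

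**Figure D2:**
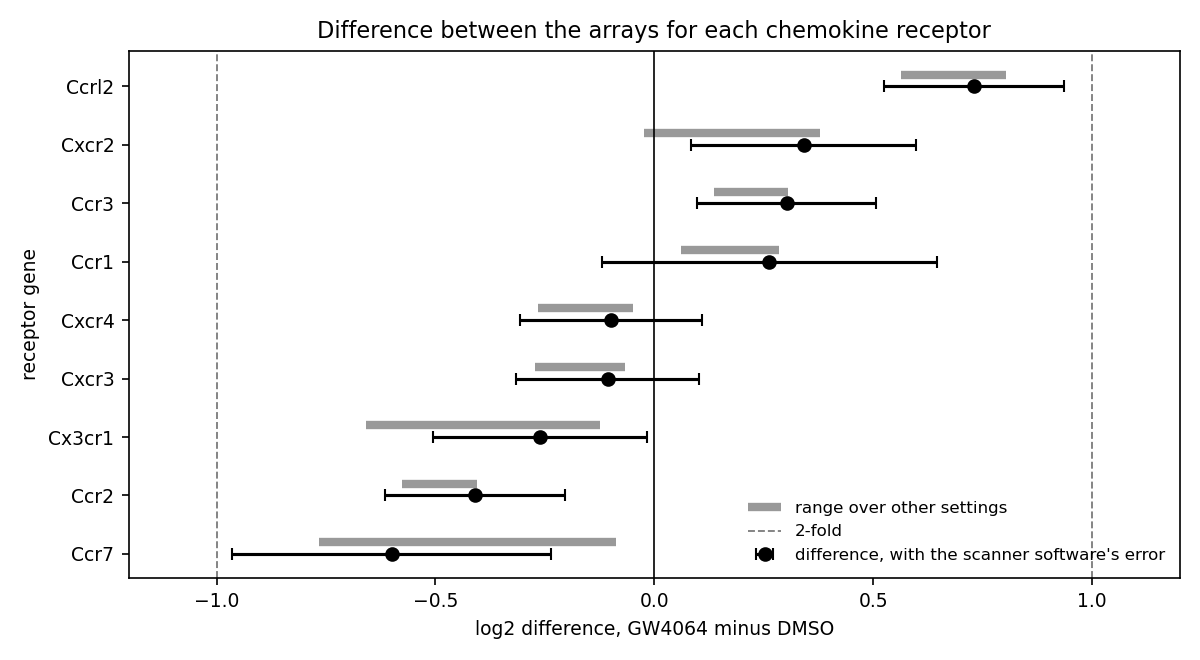
Log2 difference (GW4064 minus DMSO) of each of the 9 chemokine receptors, with the error that follows from the scanner software's errors (black) and the range of the value over other ways of processing (grey). Dashed lines mark 2-fold, all 9 points lie between them, Ccrl2 (0.73) stands furthest to the right and Ccr7 (-0.60) furthest to the left, and the grey range of Cxcr2 crosses 0.

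Of the CXC receptors, Cxcr2 had the largest difference. Cxcr2, the receptor by which neutrophils follow CXC chemokines to sites of infection, gave 35.5 ± 4.73 with DMSO and 47.1 ± 5.58 with GW4064. The log2 difference was 0.34 ± 0.26, a 1.27-fold higher signal and 1.56 times the SD of 0.22 over copies at this low level. With normexp background correction the value was -0.023, so the direction of Cxcr2 rested on how the background was subtracted. Genes that mark neutrophils and their precursors were on the other side from Cxcr2: 7 of 7 measured, of 8 listed, were lower, with a median log2 difference of -0.79 and a range from -0.94 to -0.32. Their summed signal was 13970 with DMSO and 9052 with GW4064, and none of the 7 was 2-fold lower. The brightest of these probes was that of S100a9, a calcium-binding protein of neutrophils and monocytes, at 8136 and 4614. The part of these cells in the Cxcr2 value was not tested.

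Cxcr3 and Cxcr4 were nearly the same on both arrays. Cxcr3, the receptor of effector T cells and NK cells for interferon-induced chemokines, gave 211 ± 21.6 with DMSO and 205 ± 21.0 with GW4064. Its log2 difference of -0.11 ± 0.21 was 1.06 times the SD over copies, and its spot lay in a damaged area with 2 spots that differed 8-fold or more nearby. Cxcr4, which holds leukocytes and their precursors in the bone marrow through CXCL12, gave 190 ± 19.3 with DMSO and 185 ± 18.8 with GW4064. Its log2 difference was -0.099 ± 0.21, or 0.936 times the SD over copies. Errors of this size do not show that Cxcr3 or Cxcr4 were equal in both groups.

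Markers of the lymphocytes that carry Cxcr3 were sparse. Of 7 T cell genes, Cd3d, Cd3g, Cd8a and Cd8b1 did not reach well above background, and the other 3 had a median log2 difference of 0.0080. Their summed signal was 1676 for DMSO and 1648 for GW4064, of which 1 probe of Cd4 alone gave 1303 and 1228. Of 5 NK cell genes, Ncr1, Klrd1 and Eomes were not well above background, Nkg7 was at -0.13, and Klrb1c gave -0.53 on 1 probe, in a damaged area, and a signal at least 12.1-fold lower with GW4064 (175 and 12.3) on the other. The summed signal of the NK cell probes was 3418 with DMSO and 3111 with GW4064, of which 1 probe of Nkg7 alone gave 3197 and 3066. The part of these cells in the Cxcr3 value was not tested.

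**Figure D3:**
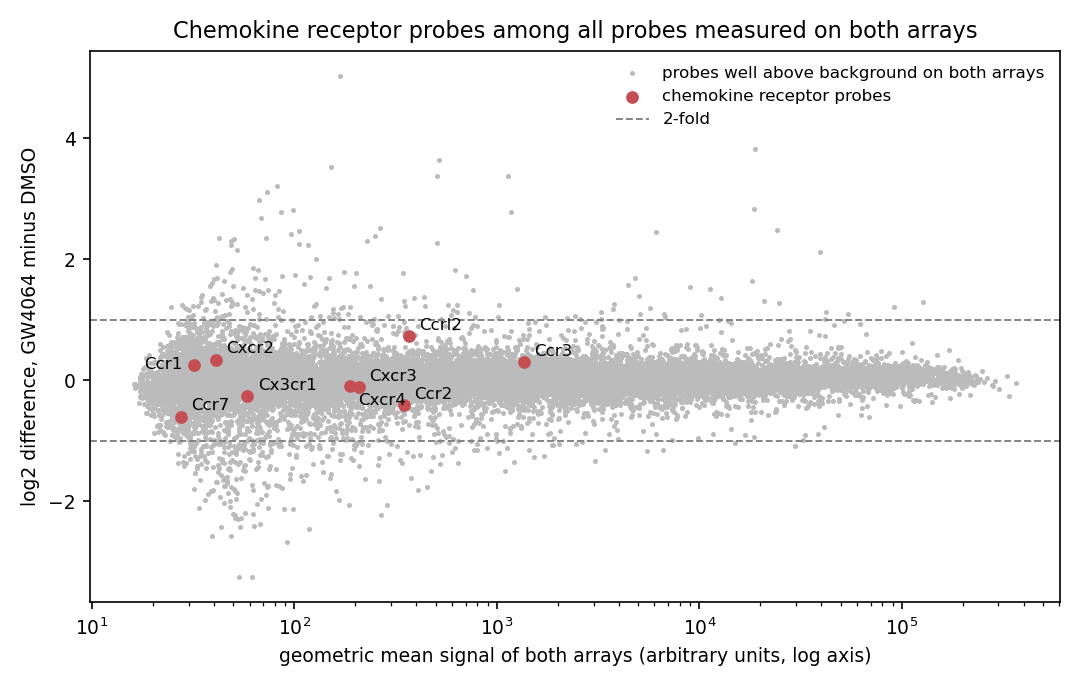
Log2 difference between the arrays (GW4064 minus DMSO) against the geometric mean signal of both arrays (arbitrary units, log axis), for the 21707 probes that both arrays had well above background (grey) and the 9 chemokine receptor probes among them (red). Dashed lines mark 2-fold, the grey cloud is widest below a signal of 100, where Ccr1, Ccr7, Cx3cr1 and Cxcr2 lie, and Ccrl2 lies near the upper edge of the cloud at its level.

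The same arrays held 15 other chemokine receptors, of which 5 were measured, 2 higher and 3 lower, with a median log2 difference of -0.043 and no gene at 2-fold. Ccr1l1, a close relative of Ccr1, gave 254 with DMSO and 288 with GW4064, a log2 difference of 0.11 that was -0.053 with centring on the spike-in probes. Cxcr6, the receptor for CXCL16, had 2 probes with log2 differences of -0.0012 and -0.084. Ccr9, which guides lymphocytes to the gut, gave 20.03 and 20.18 with a log2 difference of -0.055, which was 0.058 with normexp. Ccr10, which guides them to skin, was well above background with GW4064 alone (17.0, in a damaged area), at least 1.03-fold higher. Ccr4, Ccr6, Ccr8, Cxcr1, Cxcr5, Xcr1, Ackr1, Ackr2 and Ackr3 did not reach well above background, and the spot of Ackr4 was left out because the scanner software had marked it as uneven or as an outlier.

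The ligands of the receptors spanned a wider range than the receptors, on both sides. Of 24 ligand genes listed, 17 were measured, with 11 higher, 6 lower, a median log2 difference of 0.21 and a range from -1.66 to 1.49. With GW4064, 3 of the 17 were 2-fold or more higher and 1 was 2-fold or more lower, beside 2.04% and 2.71% of all genes. Ccl5, a ligand of CCR1 that draws T cells and monocytes, rose from 446 to 1311, 2.81-fold. Ccl6, a mouse chemokine of myeloid cells that also acts on CCR1, rose from 27768 to 63696, 2.19-fold. Ccl2, the main ligand of CCR2, rose from 36362 to 81201, and the log2 difference over 10 copies of its probe was 1.09 with an SD of 0.056. Ppbp, a platelet and myeloid chemokine that acts on CXCR2, fell by 1.66 on the log2 scale, from 454 to 150.

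Set beside Ccl2, Ccl7 and Ccl12, Ccr2 lay on the opposite side. Its log2 difference was -0.41, and those of Ccl2, Ccl7 and Ccl12 were 1.09, 0.82 and 0.53. The signal of Ccl7, a monocyte chemoattractant that CCR1 and CCR2 share, was 20383 with DMSO and 37672 with GW4064, and that of Ccl12, known as MCP-5, was 480 and 727. Ccr1, at 0.26 with a larger error of 0.38, was on the same side as the ligands set beside it here. These gave 0.28 for Ccl3, 0.46 for Ccl9, 0.82 for Ccl7, 1.13 for Ccl6 and 1.49 for Ccl5. Ccl9 had a bright probe, at 83795 with DMSO and 120973 with GW4064, which lay in a damaged area. Ccl4, a chemokine of activated macrophages, gave 0.53 in a damaged area. The monocyte chemoattractant Ccl8 gave -0.47, which is on the side of Ccr2 and not of Ccr1.

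Among the measured ligands set here beside the other receptors, only Ppbp was 2-fold or more different. Ligands given above for Ccr1 and Ccr2 are not repeated here, whichever other receptors they bind. For Ccr3, Ccl24 (eotaxin-2, itself an IL-4 response gene of macrophages) gave 291 and 352, a log2 difference of 0.21, and Ccl11 was not well above background. For Cx3cr1, the membrane-bound chemokine Cx3cl1 gave 460 and 343, a log2 difference of -0.49 beside -0.26 for the receptor. For Cxcr3, Cxcl10 gave 44.3 and 31.5 with a log2 difference of -0.56, and Cxcl9 was well above background with DMSO alone (19.9, against 10.1) on 1 of its 2 probes, at least 1.38-fold lower with GW4064. Both of these are induced by interferon. For Cxcr4, the 2 probes of Cxcl12 gave -0.017 and -0.21. For Ccr7, the probe of Ccl19 that was measured gave 32.0 and 36.2, a log2 difference of 0.11, and the mean over Ccl19 probes was -3.69 once a marked spot of another probe was kept. For Ccrl2, the chemerin gene Rarres2 gave 57.8 and 62.9 with a log2 difference of 0.056 in a damaged area (-0.16 with normexp), beside 0.73 for the receptor. Cmklr1, the chemerin receptor that signals, had signals of 13.6 and 6.27, neither of them well above background. For Cxcr2, the ligands Cxcl1, Cxcl2, Cxcl3 and Cxcl5 did not reach well above background.

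**Figure D4:**
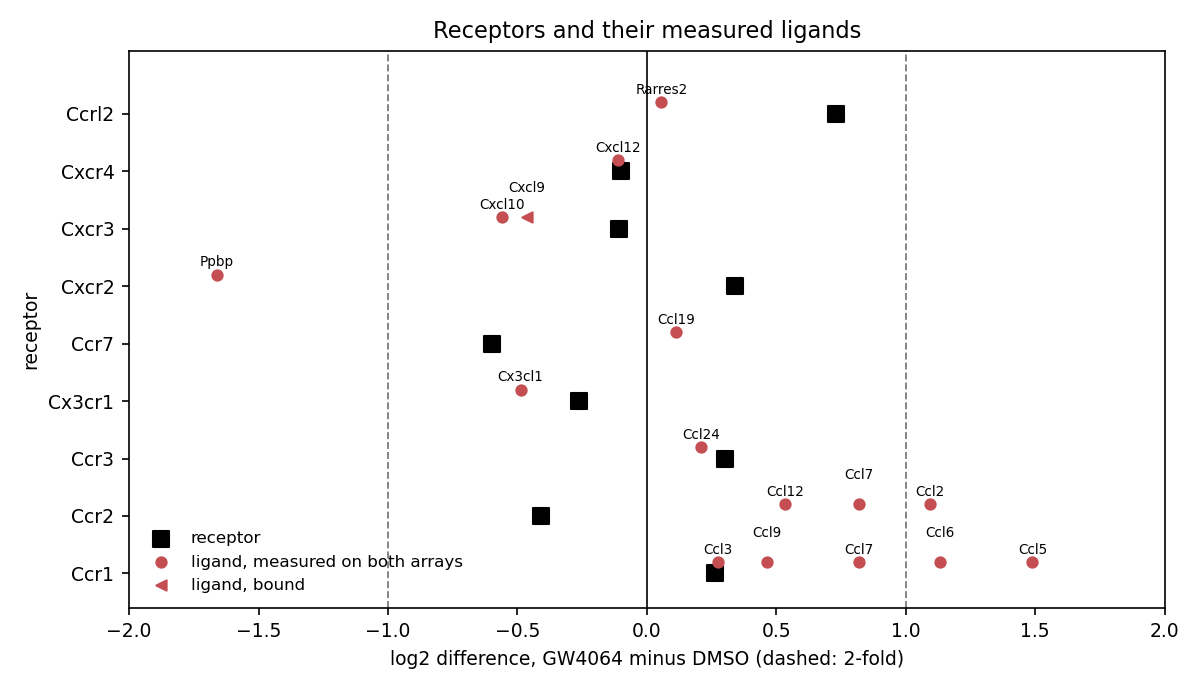
Log2 difference (GW4064 minus DMSO) of each of the 9 receptors (black squares) and of the ligands measured for it (red circles; a triangle marks a bound, for a ligand well above background on 1 array only). Dashed lines mark 2-fold, Ccl2, Ccl7 and Ccl12 lie to the right of 0 and their receptor Ccr2 to the left. The ligands past 2-fold are Ccl2, Ccl5, Ccl6 and Ppbp, while no receptor is.

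Receptors for other chemoattractants, such as complement fragments, lipids and nucleotides, also spanned a wider range than the chemokine receptors. Of 18 listed, 13 were measured, 7 higher and 6 lower, with a median log2 difference of 0.097, a range from -0.86 to 0.99 and none at 2-fold. The sign of this median did not hold, since it was -0.070 with centring on the spike-in probes and -0.16 when both arrays had to be well above background. C5ar1, the receptor for the complement fragment C5a, gave 2775 and 5778, a 1.99-fold higher signal with GW4064, where the spots around it had a median of 0.18. The 2 probes of C5ar2, the companion C5a receptor, gave log2 differences of 0.35 and 0.41. S1pr3, a receptor for sphingosine 1-phosphate, gave 227 and 131, a log2 difference of -0.86. Fpr2, a formyl peptide receptor, was well above background with GW4064 alone (22.9, against 7.52) and was at least 1.39-fold higher. The brightest probes of this list were those of P2ry6, a receptor for UDP, at 0.097 with an SD of 0.10 over 10 copies, and of C3ar1, the C3a receptor, at -0.29. C5ar1, C5ar2, S1pr3 and Fpr2 were chosen after their values were seen.

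Proteins that pass on the signal of chemokine receptors differed little. Of 32 genes for G protein subunits, phosphoinositide 3-kinase and phospholipase C subunits, Rac regulators, arrestins, receptor kinases and RGS proteins, 31 were measured. None was 1.5-fold or more different, 6 were higher and 25 lower, and the median log2 difference was -0.088 with a range from -0.29 to 0.32. The brightest probe was that of the G protein subunit Gng5, with a log2 difference of -0.079. Next came 1 of the 2 probes of the RGS protein Rgs2, at 0.013, while the other, dimmer Rgs2 probe gave -0.12. The probe of the G protein subunit Gnb2 followed, at -0.089. Gnai2, the inhibitory G protein subunit of leukocytes through which these receptors chiefly signal, gave 27052 and 35119, a log2 difference of 0.31 in a damaged area. Rac2, the haematopoietic GTPase of cell movement, gave 0.28 as a mean over 10 copies of its probe. Pik3cg, the catalytic subunit of the kinase that chemoattractant receptors turn on, gave -0.32 and -0.16 on its 2 probes. These last 3 genes were chosen after their values were seen.

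The label of the cells was checked against markers. Of 8 macrophage genes, 7 were measured on both arrays, Adgre1 (F4/80), Csf1r, Itgam, Mertk, Fcgr1, Lyz2 and Cd14, with a median log2 difference of 0.058, a range from -0.25 to 0.13 and summed signals of 341224 and 326560. Itgam, Mertk, Fcgr1, Lyz2 and Cd14 were the higher ones, and all of them were below 0 with centring on the spike-in probes. Of the genes that IL-4 induces in macrophages, Arg1, the enzyme arginase, rose from 4875 to 72297, 14.2-fold, and Retnla gave 32778 and 64452, a log2 difference of 0.91. Chil3 was at 0.066 and the mannose receptor Mrc1 at -0.34. Collagen and matrix genes of stromal cells were also present: 6 of 7 were measured, all 6 lower with GW4064, with a median of -0.78 and summed signals of 36787 and 20605. Among stromal cells Cxcl12 is a typical product, and the part of such cells in the Cxcl12 values was not tested. Of the B cell genes, Cd79a and Pax5 were among those not well above background, and 2 of 5 were measured, both lower, among them Ms4a1 (35.8 and 7.08), at least 2.47-fold lower. Of mast cell and basophil genes only Kit was measured, at -0.74.

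Dendritic cell genes gave no single direction. Of 6 listed, 4 were measured with a median of 0.24, from Itgax (CD11c) at -0.30 to Flt3, in a damaged area, at least 4.94-fold higher with GW4064 on 1 of its 2 probes (10.5 and 81.5). Xcr1 and Clec9a, which define the cross-presenting class, were not well above background. The 4 plasmacytoid dendritic cell genes had a median of -0.024, with 1 higher and 3 lower. They ranged from -0.88 for Ly6d, in a damaged area, to 0.23 for Bst2.

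**Figure D5:**
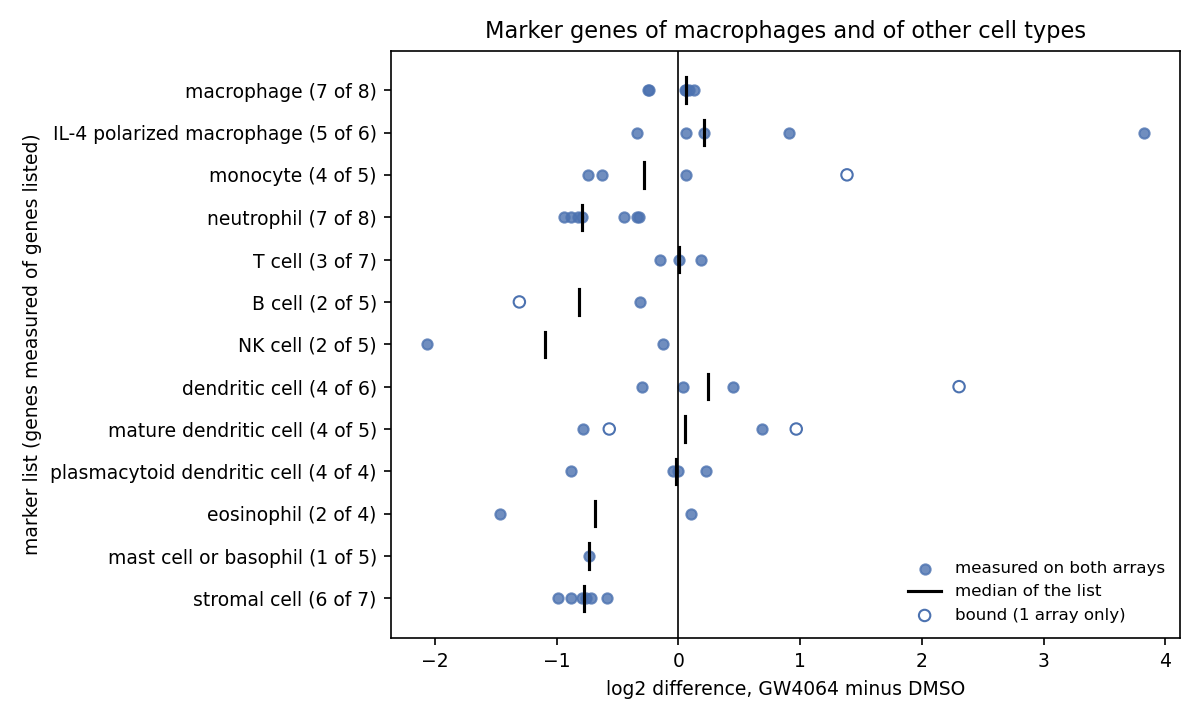
Log2 difference (GW4064 minus DMSO) of the marker genes of macrophages and of other cell types, with 1 point per gene, open points for bounds and a black bar for the median of each list. The 7 neutrophil genes and the 6 stromal genes lie left of 0, the macrophage genes lie between -0.25 and 0.13, and Arg1, at 3.82, stands furthest to the right.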

How the data were processed

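Total RNA of BMDMs under the M2 condition was labelled with Cy3 and read on 1 Agilent 1-colour array per group (DMSO, GW4064), both on 1 slide and in 1 scan, so neither could be tested as a batch. The authors deposited the intensity of each spot after Agilent Feature Extraction 10.7.1.1 (version from the submitters' processing notes) had subtracted background and removed trends within the array, with an intensity error per spot, spot and background median intensities, and flags. A table of log2 values for the same arrays was deposited too. Its normalization was not given in the sources used here, its column medians were 0.035 (DMSO) and -0.051 (GW4064), and its differences equalled those computed here apart from a constant of 0.0022, within 2.8e-06. The baseline on which its probes were centred stays unknown, and its direction follows the sample labels.

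From the intensities, log2(signal) minus the 75th percentile over 43020 non-control spots was taken per array. Marked spots (uneven, or outliers among copies) were left out, and 0 spots were saturated. Copies of a probe were averaged (399 of 39429 probes were printed 10 times), which left 39200 probes. Of these, 21707 were well above background on both arrays, 1230 with GW4064 alone and 812 with DMSO alone. A probe that was well above background in 1 group alone was given as a bound ("at least"): its dimmer signal was replaced by the lowest signal of that array that was well above background, unless its own signal was higher. Probes of 1 gene were averaged where any array had them well above background. Symbols came from RefSeq accessions without versions in the GRCm38.p6 annotation (26581 probes matched). Genome positions of the probes were not used, since the array design names a different build, and the order of genes was taken from the annotation.

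With 1 array per group, p-values were not computed and 2-fold was the limit. The SD over copies is the median over the 20 copied probes nearest in signal and covers spotting and hybridization within an array only. The log2 error combines the scanner software's errors of both signals. Members and lists were chosen with earlier results of these data known. The text names every member, the other chemokine receptors that were measured, the measured ligands, genes past 2-fold and the genes of the 2 brightest probes of the remaining lists, 4 gene lists and 13 marker lists in all; exceptions are stated, and values of some listed genes are not reported here. Receptor and ligand pairs were written down from general knowledge after the files had been read. Alternatives numbered 14, among them local centring, which was added after seeing the data. The script was tested on simulated data. Normexp was run with limma 3.58.1 in R 4.3.3, the loess with statsmodels 0.14.6, and all else in Python 3.11.15 with pandas 2.3.3, numpy 2.4.6 and scipy 1.17.1, with figures drawn in matplotlib 3.10.9.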

Additional observations from a re-analysis of the deposited data

How the results depend on the processing

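No paired analysis was possible because each group held 1 array. The number of receptors 2-fold or more apart stayed at 0 in both directions in each alternative that kept the 2-fold limit and was 1 higher and 1 lower at 1.5-fold. Of the 9 receptors, 8 kept their sign in every alternative that gave them a value, and Cxcr2 did not (-0.023 with normexp). The difference of Ccrl2 ran from 0.56 to 0.80 and that of Ccr7 from -0.77 to -0.087. Centring on 8 spike-in probes moved the median over all probes measured on both arrays from 0.012 to -0.15. With it the median was -0.27 for the receptors, -0.21 for the other chemokine receptors, -0.070 for the other chemoattractant receptors, 0.041 for the ligands and -0.26 for the signalling genes, and only the chemoattractant receptors changed sign. The median of the chemoattractant receptors was also 0.019 with quantile normalization, 0.0012 with normexp and -0.16 with both arrays required to be well above background, and that of the ligands was 0.12 with normexp. Without damaged areas the receptors' median was 0.26, as Cx3cr1 and Cxcr3 then have no value. Probes 2-fold or more higher and lower numbered 510 and 659, against 112 and 120 with normexp, 1637 and 1664 without a filter on dim probes, 178 and 278 with both arrays required, 277 and 338 without damaged areas, 1117 and 1318 at 1.5-fold, and 118 and 156 at 4-fold. Taking the brightest probe of each gene gives no count of probes. The cause of these moves was not tested, other than where fewer probes or another limit entered by construction. Signals near background limit Ccr1, Ccr7, Cx3cr1 and Cxcr2 most.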

Other observations

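The CXCR2 ligands Cxcl1, Cxcl2 and Cxcl3, which draw neutrophils, were not well above background on either array. Their signals were 4.82, 4.30 and 6.58 with DMSO and 17.3, 18.3 and 19.8 with GW4064, and no fold is given for them. The signal of the formyl peptide receptor Fpr1, also not well above background, was 4.15 with DMSO and 14.3 with GW4064. Cxcl5, a further CXCR2 ligand, gave 12.8 and 5.53.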
